A study of Mus musculus with 2 samples.

Results

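The Adamtsl3 locus is a 360 kb window on mouse chromosome 7, chr7:89450000-89810000 in build mm9. It holds a long run of regions listed as having more histone H4 chromatin in cells given SAHA than in cells given DMSO. All listed regions that overlap the window were taken as members, which gave 80 of the 61400 listed regions and 80 of the 3561 on chromosome 7. The window was chosen by the listed regions themselves, for their number and their coverage, so both are given here as a description and without a test. The listed regions came from chromatin immunoprecipitation and sequencing of MC3T3 sc4 cells, an osteoblast line from mouse calvaria that is a single clonal line. The 2 groups were 1 library of cells treated with 20 µM SAHA (suberoylanilide hydroxamic acid, vorinostat) for 2 hours on day 4 of culture in osteogenic medium with ascorbic acid and beta glycerol phosphate, and 1 library of cells given its solvent DMSO in the same way. The antibody is labelled as histone H4, and the series describes the target as H4 acetylated on its tail. SAHA or DMSO was also present in both groups during a collagenase digest of 40 min before crosslinking.

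Adamtsl3 encodes a secreted glycoprotein of the extracellular matrix. It belongs to the ADAMTS-like proteins, which share the thrombospondin type 1 repeats of the ADAMTS proteases but lack their catalytic domain. Acetyl groups on the tail of histone H4 are added by acetyltransferases and removed by histone deacetylases, and acetylated H4 is known for marking open chromatin at promoters, enhancers and transcribed genes. SAHA blocks the zinc-dependent deacetylases. In the RefSeq order of protein-coding genes, Adamtsl3 lies between Sh3gl3 and Saxo2, with Efl1 after Saxo2.

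The start of the gene is shown because a CpG-rich start is a kind of sequence that acetylated H4 is known to mark. The RefSeq promoter table (build GRCm38.p6, plus strand, chr7:82335444-82335693) gives the 250 bases before the start as follows, with each CG in capitals.
Adamtsl3: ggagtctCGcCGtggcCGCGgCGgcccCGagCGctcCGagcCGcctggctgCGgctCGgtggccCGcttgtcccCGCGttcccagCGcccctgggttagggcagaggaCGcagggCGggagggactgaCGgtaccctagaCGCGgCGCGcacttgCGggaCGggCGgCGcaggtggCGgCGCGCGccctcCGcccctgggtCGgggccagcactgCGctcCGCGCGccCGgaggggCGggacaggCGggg
This stretch held 39 CG pairs and 80.0% G or C, and CG was 0.983 times as frequent as its C and G content would give. As many CG pairs or more were found in 1.56% of 32851 promoter windows of this length, whose median was 6, and at least 1 CG in 92.1%. CG reads the same on both strands. These coordinates belong to another build than the regions and cannot be set beside them, so it was not determined which listed region, if any, covers the start of Adamtsl3, or which regions are exonic or intronic.

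The SAHA library had 123676661 tags and the DMSO library 76214516 after the authors' limit on duplicates, so DMSO tags were scaled by 1.62. That limit kept 97.4% of the SAHA tags and 65.6% of the DMSO tags. The genome average was 66.1 tags per kb at the depth of the SAHA library. Neither group had a replicate, so every difference below is one between 2 libraries, and no interval covers variation between cultures. Intervals of tag counts, of pooled tags per kb and of ratios of 2 counts cover counting error only. Those of medians and of the share of regions that pass a limit are taken over regions. They treat neighbouring regions as independent, which they need not be. The deposited false discovery rate (FDR) of the 80 regions ran from 58.37% to 100%, and all their values are read with that limit. As MACS is known to define it (the header is silent on this), the FDR counts the regions found with SAHA and DMSO exchanged per 100 listed at the same score or better, so at 100% the opposite direction gave at least as many. The files hold no expression values, so neither the level of Adamtsl3 nor the osteoblast label was checked against them.

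The 80 regions covered 183.9 kb, or 51.1% of the window. The first began at 89491921 and the last ended at 89774247, a span of 282.3 kb of which 65.1% was covered. They held 37149 SAHA tags (95% exact Poisson interval 36772 to 37529). The window lay empty for 41.9 kb before the first region and for 35.8 kb after the last. Chromosome 7 had 23.9 regions per Mb between its first and last region, with 4.98% covered. The locus had 222.2 per Mb, 9.31 times as many, and 10.3 times the covered share. It made up 0.241% of that stretch of the chromosome and held 2.25% of its regions and 2.45% of the SAHA tags in them.

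The listed regions nearest to the locus on either side stood apart from it. On the left, a region of 11.1 kb at chr7:89421995-89433044 held 3261 SAHA tags and a summit fold of 5.74, and 58.9 kb without a region separated it from the first member. On the right, a region of 4.87 kb with 800 tags and a fold of 3.21 began at 89810199, which is 199 bp outside the window, after 36.0 kb without a region. The outermost members lay well inside the window. The first was 663 bp long with 94 tags and a fold of 5.19. The last was 1029 bp long with 115 tags and a fold of 3.65. The tile of equal size before the locus had 3 regions and 4.16% covered, and the tile after it had 34 regions and 19.6% covered.

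**Figure D1:**
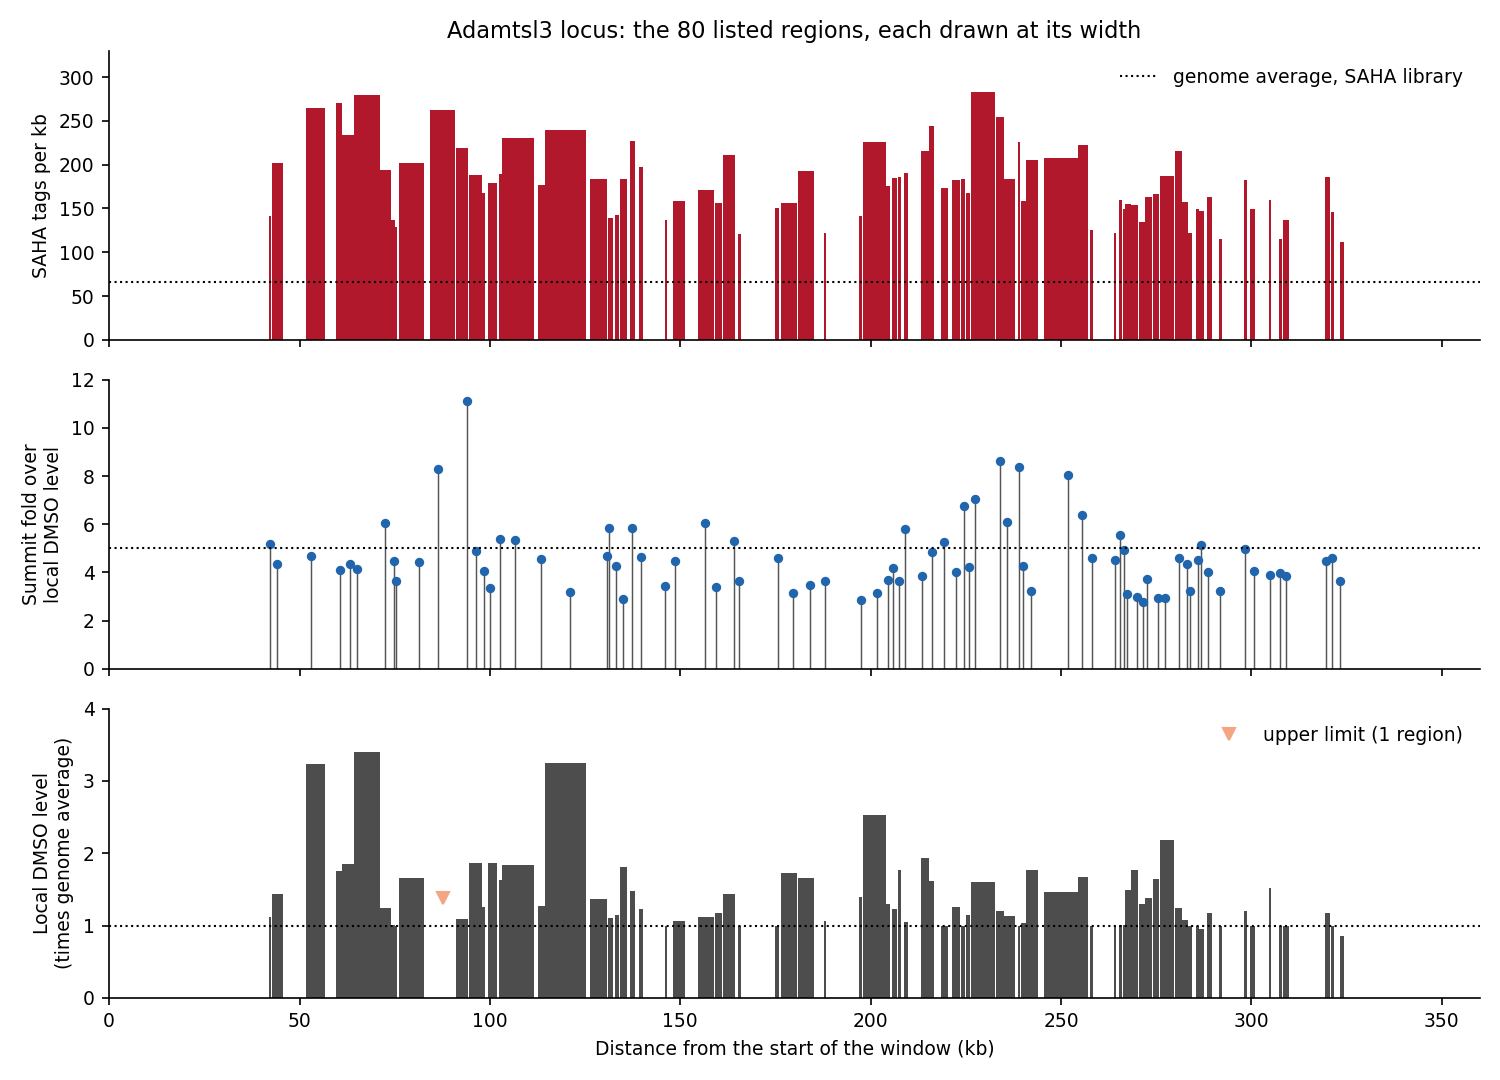
The 80 regions at the Adamtsl3 locus by distance from the start of the window (kb), each drawn at its width. The panels show SAHA tags per kb (the dotted line is the genome average of 66.1), the summit fold over the local DMSO level (dotted line at 5) and the local DMSO level as a multiple of the genome average (dotted line at 1, with a triangle for the upper limit of 1 region). The highest folds, 8.06 to 11.1, lie in 2 separate places, and the tallest DMSO bars stand over wide regions.

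Regions were packed into a pair of stretches with a thinner part between them. In successive stretches of 20 kb, the first 40 kb of the window had no region. From 40 to 60 kb, 45.6% was covered. From 60 to 140 kb, 89.0% was covered by 22 regions with a median length of 2138.5 bp, and the densest 20 kb, from 60 to 80 kb, reached 96.3%. From 140 to 200 kb the covered share was 44.1%, with 11 summits. It was 75.7% from 200 to 280 kb, where 29 summits lay, and 27.6% from 280 to 340 kb, where the 15 regions were short, with a median of 1029 bp and none over 1780 bp. The last 20 kb held no region. These limits were set after the values were seen.

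Pooled SAHA tag density was higher in each packed stretch than between them or in the tail. Regions with their summit in the first packed stretch held 219.5 SAHA tags per kb, those in the second 202.6, those between them 169.5 and those of the tail 155.1. Density did not follow packing in every 20 kb. Just before the first packed stretch, from 40 to 60 kb with 45.6% covered, it was 233.2 tags per kb. That is above the pooled value of either packed stretch. From 260 to 280 kb, with 71.9% covered, it was 162.1 tags per kb. From 180 to 200 kb, with 41.1% covered, it was 177.3. The recovered DMSO level, explained below, was also highest in the first packed stretch, with a median of 1.47 times the genome average, against 1.12 in the part between, 1.30 in the second and 1.00 in the tail. The median ratio of SAHA to that level was 1.92, 2.03, 2.16 and 2.20 in order along the locus. By stretches of 20 kb this ratio did not rise steadily. The second packed stretch held the highest median, 2.69 from 220 to 240 kb, and the lowest, 1.57 from 260 to 280 kb.

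**Figure D2:**
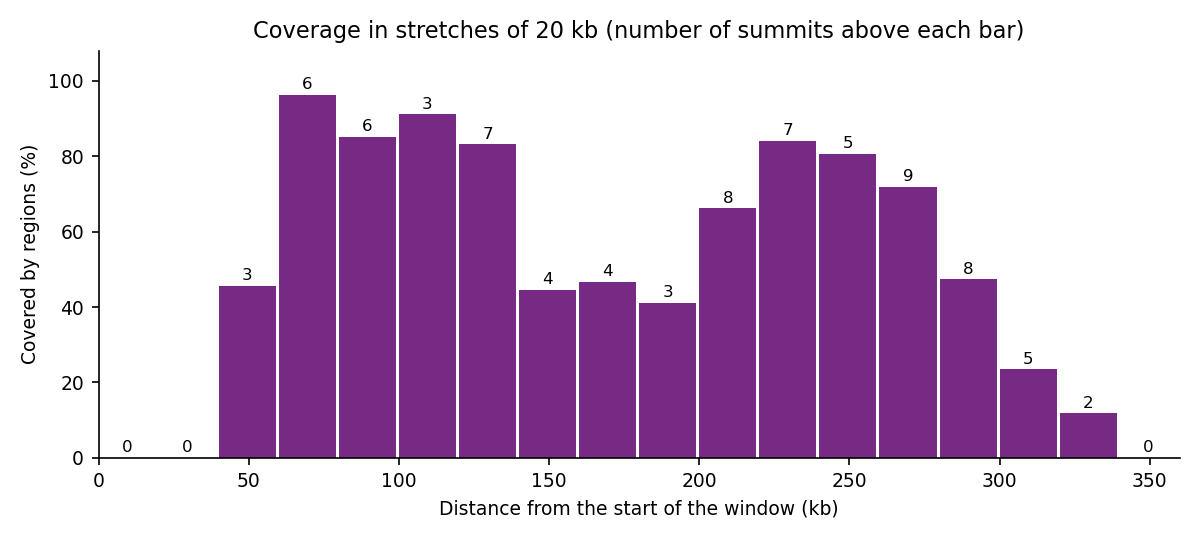
Share of each 20 kb stretch of the window covered by listed regions (%), by distance from the start of the window (kb), with the number of region summits above each bar. The bars reach 96.3% from 60 to 80 kb and 84.1% from 220 to 240 kb, fall to 41.1% from 180 to 200 kb, and are 0 in the first 40 kb and the last 20 kb.

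Neighbouring regions at the locus were close together. The median of the 79 gaps was 395 bp (quartiles 137 and 1216.5 bp), against 2355 bp for the 3479 gaps on the rest of chromosome 7 (quartiles 345.5 and 14573.5 bp). Gaps of 1 kb or less made up 72.2% at the locus and 38.3% elsewhere on the chromosome. In 21 of the 79 gaps the distance was below the fragment size of 141 bp, or 26.6%, against 14.0% elsewhere. Whether regions this close belong to 1 broad domain was not tested. The longest chain with gaps of at most 100 bp joined 6 regions at chr7:89509486-89525647, where 98.6% of 16.2 kb was covered and held 3835 SAHA tags. A chain of 5 regions covered 97.6% of 7.72 kb at chr7:89716204-89723922.

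When neighbours no more than 1 kb apart were joined, the 80 regions formed 23 blocks, of which 8 were single regions. In 9 blocks the length was at least 10 kb, and these took in 59 of the 80 regions and 46.7% of the window. The longest, chr7:89562668-89590346, spanned 27.7 kb with 8 regions and 206.8 SAHA tags per kb of covered sequence. Next came 27.1 kb at chr7:89534351-89561481 with 7 regions and 223.2 tags per kb. Blocks of 23.3, 22.4 and 20.5 kb followed at chr7:89509486-89532811, chr7:89671488-89693914 and chr7:89713817-89734329. The last of these had the most regions, 12, and the lowest density of the 5, 165.0 tags per kb.

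A few wide gaps accounted for much of the sequence left uncovered inside the span. In 7 gaps of over 5 kb lay 49.8 kb, or 50.6% of the 98.5 kb between the first and last region that no region covered. The 5 widest were 9.43 kb at chr7:89759849-89769277, 9.06 kb at chr7:89615914-89624968, 8.54 kb at chr7:89638358-89646900, 6.05 kb at chr7:89495769-89501820 and 5.82 kb at chr7:89742266-89748089. The second and the third lie to either side of a block of 10.1 kb at chr7:89624969-89635036, in the thinner middle part. The share of these gaps to which tags can map was not analysed here. A gap means that no stretch passed the caller's cutoff, not that SAHA tags were missing.

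**Figure D3:**
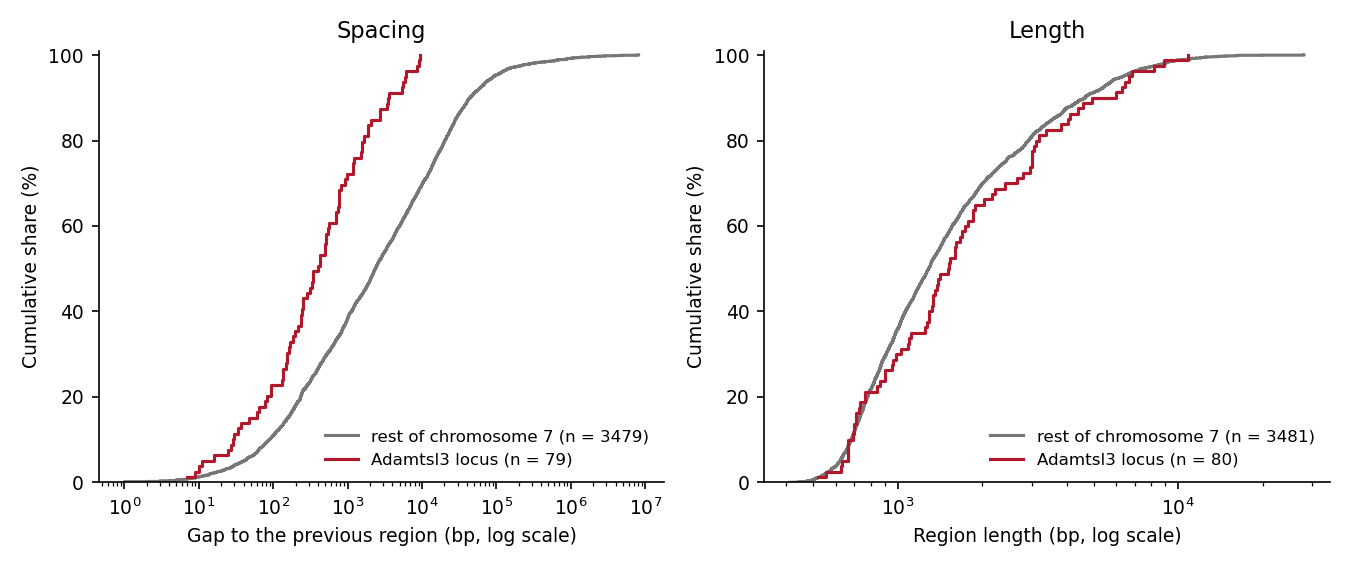
Cumulative shares (%) of gaps to the previous region (left, bp, log scale) and of region lengths (right, bp, log scale) for the Adamtsl3 locus (79 gaps, 80 regions) and the rest of chromosome 7 (3479 gaps, 3481 regions). The gap curves lie apart, with medians of 395 and 2355 bp, while the length curves lie close together, with medians of 1516.5 and 1286 bp.

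In length the regions of the locus differed less from the rest of the chromosome than in spacing. Their median was 1516.5 bp (95% order-statistic interval 1295 to 1848 bp), against 1286 bp (1252 to 1322 bp) for the 3481 other regions of chromosome 7. The shortest, at chr7:89525127-89525647, was 521 bp long with 67 tags. Of the 80, 24 were under 1 kb (30.0%, against 35.9% elsewhere), 8 were over 5 kb (10.0% against 8.82%) and 1 was over 10 kb. These intervals treat neighbouring regions as independent, which regions of 1 domain need not be.

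The covered sequence of the locus held about as many tags per kb as other covered sequence of chromosome 7. Pooled over the covered sequence, the locus had 202.0 SAHA tags per kb (95% exact Poisson interval 200.0 to 204.1), 3.05 times the genome average. The rest of chromosome 7 had 204.2 (203.9 to 204.5). Taken region by region, the median was 176.2 tags per kb at the locus (159.9 to 185.9) and 154.6 elsewhere (153.2 to 156.5). The pooled value gives most weight to long regions and the median gives each region the same weight. Single regions of the locus ran from 111.8 to 283.5 tags per kb. The locus thus exceeded the rest of the chromosome in covered share by a wide margin, but not in pooled tags per covered kb.

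The highest density was at chr7:89676313-89682634, with 1792 SAHA tags over 6322 bp, or 283.5 per kb and 4.29 times the genome average. It was followed by chr7:89514317-89521135, with 1909 tags over 6819 bp or 280.0 per kb, and by chr7:89509486-89511097, with 436 tags over 1612 bp or 270.5 per kb. The lowest 3 were all in the tail of the locus. They were the last region, chr7:89773219-89774247, with 111.8 tags per kb, then chr7:89741534-89742265 with 114.8 and chr7:89757307-89758071 with 115.0. These had 1.69 to 1.74 times the genome average.

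The summit fold sets the highest point of SAHA tags in a region against the local DMSO background, as given by the authors' caller. Its median was 4.37 at the locus (95% order-statistic interval 4.07 to 4.61) and 3.96 on the rest of chromosome 7 (3.91 to 3.97). A fold of at least 5 was called in 21 of 80 regions, or 26.2% (95% exact binomial interval 17.0 to 37.3%), against 19.0% of all 61400 listed regions and 20.0% of the other regions of chromosome 7. An FDR of 100%, which goes with the highest scores of this list, was found for 15 of the 80, or 18.8% (10.9 to 29.0%), against 11.6% of all listed regions. Both backgrounds lie inside the interval of the locus. Both columns belong to the list that chose the locus, and nothing further is read from these counts.

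The 5 highest folds lay at 2 places, 140.0 kb apart. At the first, chr7:89541167-89544271 had the highest fold of the locus, 11.1, with 681 SAHA tags over 3105 bp and its summit at 89543926. Its left neighbour, chr7:89534351-89540830, had a fold of 8.30 with 1697 tags over 6480 bp. At the second place, chr7:89682945-89685117 had a fold of 8.62 with 552 tags, chr7:89688644-89689354 a fold of 8.36 with 161 tags in only 711 bp, and chr7:89695484-89704388 a fold of 8.06 with 1852 tags over 8905 bp. Summits within each place were 5.03 to 12.9 kb from the next.

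The list gives no DMSO count per region, so the local DMSO level was recovered as the background that, with the listed tags, gives the listed score (10 times the −log10 of the caller's Poisson p). It came out for 79 of the 80 regions. In 59 it equalled a background open to the caller, which was the genome average in 15, the DMSO tags of the region itself in 9, those of 1 kb around it in 14 and those of 10 kb in 21. A level that matches a count in 1 kb also matches the same density over 10 kb. It was counted under 1 kb, so the split between 1 kb and 10 kb is not certain. MACS is known to take whichever of these backgrounds is largest. In these 59 the level is therefore an upper limit for the DMSO signal of the region, and exact where it is the region's own count. For the other 20 the level matched none and is approximate. In 3 of them it came out more than 0.1% under the genome average, which the caller cannot use. These were 0.855, 0.949 and 0.993 times the average. The size of the error in the rest of the 20 is not known.

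The recovered level at the locus was low to moderate. Its median was 1.23 times the genome average (quartiles 1.00 and 1.64), against 1.18 on the rest of chromosome 7 (1.00 and 1.57). It was at least 2 times the average in 5 of 79 regions (6.33%), against 13.3% elsewhere. The ratio of all SAHA tags in a region to this level had a median of 2.03 (95% order-statistic interval 1.89 to 2.20), against 1.85 (1.84 to 1.86) elsewhere, and reached 2 in 43 of 79 regions (54.4%) against 33.7%. Regions of similar DMSO level showed the same order where the level was under 2 times the average. Up to 1.2 times the average, the median ratio was 2.20 in 36 regions of the locus and 1.99 in 1793 others. Between 1.2 and 2 times it was 1.96 in 38 and 1.74 in 1212. At 2 times and more it was 1.24 in 5 and 1.40 in 459. The level is the denominator of the ratio, and every region was listed for its SAHA excess over its background. These values therefore describe the list, and the difference between the locus and the other regions was not tested. The share over all listed regions is not given here.

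**Figure D4:**
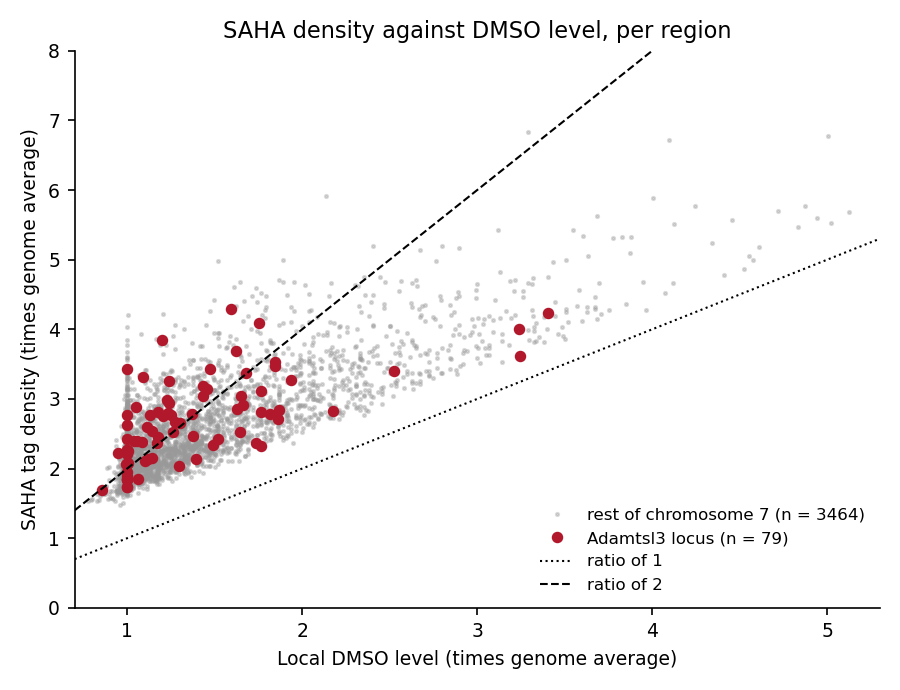
SAHA tag density of each region against its recovered DMSO level, both as multiples of the genome average, for 79 regions of the Adamtsl3 locus and 3464 others on chromosome 7, with lines at ratios of 1 and 2. Of the 79 locus regions 43 lie on or above the line for a ratio of 2, and the 5 with the highest DMSO level lie nearer to the line for 1 than to that for 2, at ratios of 1.12 to 1.35.

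The highest ratios were found at the places of highest fold. Both measures set the same SAHA tags against a local DMSO background, so they are not independent. Their Pearson r was 0.74 at the locus and 0.73 on the rest of chromosome 7. The short region chr7:89688644-89689354 had the highest ratio, 3.42, over a level equal to the genome average. The others were 3.20 at chr7:89682945-89685117, where the level is approximate, and 3.04 at chr7:89541167-89544271, over a level 1.09 times the average. The region at chr7:89534351-89540830 reached the ceiling of the score column, 3100. If the caller tested the listed tags, its ratio was 2.88 or more, over a level of 1.38 times the average or less. These 4 regions thus combined 3.32 to 3.96 times the genome average in SAHA with a DMSO level no higher than 1.38 times.

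The 5 regions with the highest DMSO level, each 3.82 kb or longer, had ratios of 1.12 to 1.35. The longest of the locus, chr7:89564471-89575290, held the most SAHA tags, 2591 over 10.8 kb (239.5 per kb), but over a DMSO level of about 3.24 times the average, so its ratio was about 1.12 and its fold 3.18. At chr7:89514317-89521135, among the densest in SAHA tags, the level was about 3.40 times the average and the ratio about 1.24. At chr7:89501821-89506753 a level of 3.24 times matched 132 DMSO tags in 1 kb, or the same density over 10 kb. There 1306 SAHA tags gave a ratio of at least 1.24. The other two of the 5 were chr7:89648039-89654052, with a level of 2.53 times and a ratio of at least 1.35, and chr7:89725949-89729766, with about 2.18 times and a ratio of about 1.30. Both of these lay in the second packed stretch and the first 3 in or just before the first. A high SAHA density at this locus therefore stood in places with little DMSO background and in places with much of it.

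Not every wide region was of that kind. At chr7:89676313-89682634, the densest region, the level was about 1.60 times the average and the ratio about 2.69. At chr7:89695484-89704388 they were about 1.46 and about 2.16. At chr7:89553254-89561481, 8228 bp long, the caller used the region's own DMSO count. There 1892 SAHA tags stood against 618 DMSO tags, which after scaling gave 1.89 (exact binomial interval at 95%, 1.72 to 2.07). At chr7:89526160-89532811, 6652 bp long with 1340 tags, the ratio was about 1.84.

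In 9 regions the level was the region's own DMSO count. These are regions listed for their SAHA excess in which the own DMSO count was also the largest background, so both counts bear on the choice and their ratios stand only for themselves. The ratios had a median of 1.89 and ran from 1.57 at chr7:89716878-89718406, with 237 SAHA and 93 DMSO tags (1.23 to 2.02), to 2.40 at chr7:89769278-89770614, with 249 and 64 (1.82 to 3.21). These were picked as the lowest and the highest of the 9, and their difference was not tested. At chr7:89611247-89614446, with 674 and 187 tags, the ratio was 2.22 (1.89 to 2.63).

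Across the 79 regions, length went with DMSO level (Pearson r 0.68, Spearman rho 0.64) and with SAHA tags per kb (0.59 and 0.65). The ratio fell as the DMSO level rose (-0.60 and -0.49). The fold had little relation to length (0.14 and 0.07). On the rest of chromosome 7 the same 4 relations were 0.70 and 0.64, 0.70 and 0.76, -0.56 and -0.58, and 0.24 and 0.19 over 3464 regions. These are descriptions across regions of the same 2 libraries, the level enters the ratio, and a longer region passes the cutoff at a lower ratio.

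Among tiles of its own size on chromosome 7, the locus had the most regions and the third highest coverage. Chromosome 7 was cut into 414 tiles of 360 kb aligned on the locus. The locus had 80 regions, and the other 413 tiles had a median of 1 (quartiles 0 and 12), with 190 of them empty. The next were 71 regions at chr7:136970000-137329999, 68 at chr7:58850000-59209999, and 63 each at chr7:74330000-74689999 and chr7:103130000-103489999. By coverage, 55.4% at chr7:136970000-137329999 and 53.0% at chr7:103130000-103489999 came before the 51.1% of the locus. They were followed by 46.0% at chr7:119690000-120049999 and 37.3% at chr7:103490000-103849999. A tiling aligned on the locus takes it in whole and may split other clusters, which favours it.

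Of the 70 tiles with at least 20 regions, the locus ranked higher by median fold and median ratio than by tag density. It had 21 regions with a fold of at least 5, against at most 19 in the other 69, but it also had the most regions, and by the share of such regions, 26.2%, it ranked 23 of 70. Its highest fold, 11.1, was second to 11.3. Its median ratio of 2.03 ranked 4 of 70 and its median fold 5 of 70. Its median gap of 395 bp was the fifth shortest. By contrast its tags per kb ranked 33 of 70, its longest region 22 and its median length 16. The 2 tiles of higher coverage had longer regions than the locus, with medians of 1698 and 1892 bp and longest regions of 14.7 and 16.3 kb, and more tags per kb, 227.7 and 219.8. Their median ratios were lower, 1.80 and 1.94. The genes of these tiles were not looked up.

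**Figure D5:**
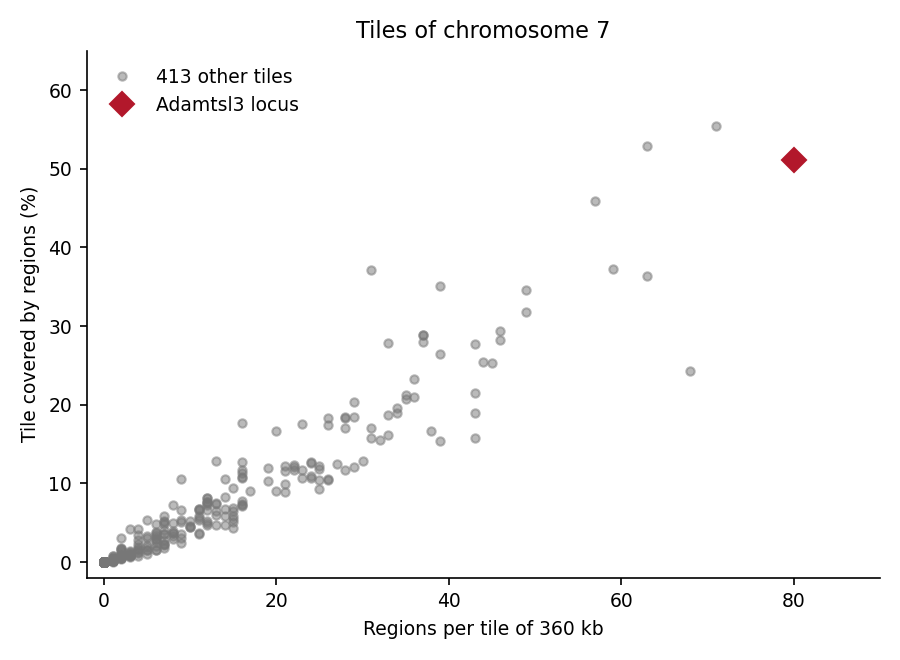
Number of regions and covered share (%) in each of 414 tiles of 360 kb on chromosome 7, with the Adamtsl3 locus as a diamond. The locus lies farthest to the right, at 80 regions and 51.1%, and 2 of the other tiles lie higher, at 53.0 and 55.4%.

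Over the whole list, regions were also joined into 19740 clusters across gaps of up to 10 kb. The Adamtsl3 cluster was second in number of regions and in span, and first in covered sequence. The one with more regions, 81 over 284.6 kb at chr5:5084663-5369300, was covered to 49.5% with a median gap of 1225 bp, against 65.1% and 395 bp at Adamtsl3. Its regions had almost the same pooled density, 201.5 tags per kb, and 3 were over 5 kb, against 8 at Adamtsl3. The clusters of 65, 56 and 55 regions, at chr4:97453054-97679569, chr13:15560928-15736554 and chr14:21678979-21865708, were covered to 57.2, 50.5 and 56.6%. Their highest folds were 7.42, 7.83 and 6.60, against 11.1 at Adamtsl3 and 7.61 in the chromosome 5 cluster. Density of coverage alone was not extreme: among the 215 clusters of at least 20 regions, the 65.1% of Adamtsl3 ranked 69, above the median of 58.4% and below the highest, 88.6%.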

How the data were processed

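The submitters' processing notes name MACS 1.4.0rc2, BWA 0.5.9, CASAVA 1.7.0 and SAMtools, and build mm9. Per the file headers, the SAHA reads were the ChIP file and the DMSO reads the control, with a p cutoff of 1e-05, at most 3 duplicates per position, the smaller library scaled to the larger and local backgrounds over 1 kb and 10 kb. The list therefore holds only regions higher in SAHA. As deposited, it gives counts of SAHA tags, a score of 10 times the −log10 of a Poisson p, the fold (a ratio) at the summit, and an FDR in percent. The DMSO level was recovered for scores under 3000 as the Poisson mean for which more than the listed tags has the listed p. A background matched it within the rounding of the score (0.005), and at this locus 1.46% of regions would match one by chance. The recovery was tested on simulated lists. These were made with the same Poisson formula and backgrounds that the recovery assumes. They check the computation and cannot show whether the caller worked this way. Named regions were the first and last, and the extremes of fold, tags, length, density, ratio and gap. The 5 regions of highest DMSO level, those with own DMSO counts, the chains, the blocks and the 2 places of high fold were singled out after their values were seen. The members and lists were chosen with earlier results of these data known. Python 3.11.15, numpy 2.4.6, scipy 1.17.1, pandas 2.3.3 and matplotlib 3.10.9 were used. No test between conditions was possible with 1 library each.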

Additional observations from a re-analysis of the deposited data

How the results depend on the processing

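No paired analysis was possible because each group has 1 library. Of 31 other settings for 9 values, 10 left the value within its interval (a count within 1.5 times, a rank unchanged) and 21 moved it. The interval used for the covered share was 50.9 to 51.2%. It is as narrow as one that treats every base as independent, so a move of the covered share says little. With a score of at least 100, the covered share was 44.6%, the density 204.6 tags per kb and the rank by coverage 2. With a fold of at least 5, 21 regions remained, with 17.2% covered, a median length of 2173 bp, a median gap of 5291.5 bp, 217.8 tags per kb, a median fold of 6.06, a median ratio of 2.36 and a rank by coverage of 4. Joined across gaps of up to 1 kb there were 23 regions covering 55.8%, the median gap was 2749 bp, the median length 3848 bp, and the rank by count fell to 16 of 414. Stricter limits and joining change counts, gaps and lengths by construction. Without depth scaling the median ratio was 3.29, larger by the scaling factor of 1.62. Among 14889 windows at every 10 kb of chromosome 7, the locus ranked 16 by count and 78 by coverage, and in each case 13 of the windows above it overlapped the locus. Among 6588 tiles on all autosomes it ranked 7 by count and 8 by coverage. The unequal loss of duplicates between the libraries cannot be undone from the list.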
